A study of Mus musculus with 282 samples.

Results

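Liver RNA of Bmal1 knockout mice that had received a vehicle injection was compared with that of Bmal1 knockout mice that had received none. The comparison used 36 of the 282 libraries of the series, 18 with vehicle and 18 uninjected, chosen by their labelled genotype, feeding schedule and treatment. All mice were male C57BL/6J, carried a whole-body knockout of Bmal1, were caged singly in a cycle of 12 h light and 12 h dark, and had food at night (labelled "Night restricted"). Livers were taken at Zeitgeber time (ZT, hours after lights on) 2, 6, 10, 14, 18 and 22, with 3 biological replicates per arm and time. The sources used here do not say what the vehicle was, how it was injected or when. Night-fed wild-type (WT) mice, again 18 with vehicle and 18 uninjected, were used to ask whether the difference depended on genotype. The whole-body knockout removes Bmal1 from every tissue, so effects arising in the liver and elsewhere cannot be told apart. In these bulk samples, fewer cells of a type and less RNA per cell cannot be told apart either.

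BMAL1, encoded by Arntl, pairs with CLOCK or NPAS2 to switch on the genes of the circadian clock, among them the Per and Cry genes whose products repress it, and the Nr1d1 and Nr1d2 genes whose products repress Arntl. Without BMAL1 this loop stops, and daily changes of gene expression in the liver that persist are usually those set by feeding and systemic signals. An injection itself involves handling, a needle and a solvent, and the liver answers stress hormones and cytokines with acute-phase proteins and with changes in lipid and amino acid metabolism.

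Levels are reads per 1000000 reads (RPM; 1 M is 1000000 reads) recovered from the 3' ends of transcripts and rescaled across libraries, and 3 levels in a row are the lowest, the median and the highest of an arm's 18 libraries. Differences are log2(RPM + 0.5) with vehicle minus that without, averaged over the 6 times, ± SE. Tests were made with limma over 12428 genes, with Benjamini-Hochberg adjustment and a threshold of 0.05.

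The uninjected knockout arm stood apart from the vehicle arm and both WT arms used here in its library make-up. The GC share of the 3' ends, weighted by reads, was 42.7 to 44.9% (median 43.3%) with vehicle and 45.3 to 47.6% (median 46.1%) without, while the WT arms had medians of 43.3% with vehicle and 43.2% without. Mitochondrial genes took 9.50 to 17.5% of reads (median 14.2%) with vehicle and 3.94 to 10.6% (median 7.86%) without, against medians of 15.2% and 15.0% in the corresponding WT arms. At a common depth of 2 M reads, 13489 to 14537 genes (median 14410) were detected with vehicle and 11528 to 13823 (median 13681) without. These 3 knockout differences had p = 2e-05 in two-sided permutation tests, the smallest that 100000 resamples can give (adjusted over 18 tests, 5.14e-05). The 6 libraries of vehicle replicate 1 lay between the arms in GC share (43.9 to 44.9%) and had 9.50 to 12.0% mitochondrial reads, against 12.8 to 17.5% in vehicle replicates 2 and 3. Libraries with the same vehicle replicate number deviated together across times (median correlation of residuals 0.48), which was not so in the uninjected arm (0.053). The permutation tests took the libraries of a genotype as exchangeable, whatever their time and replicate number. Their p-values are too small where libraries of a number deviate together. Depth was 6.09 to 10.5 M reads with vehicle and 2.18 to 12.6 M without, and 2 uninjected libraries, ZT6 replicate 1 and ZT22 replicate 3, were shallow. Even at the common depth these 2 had the fewest genes of the arm, 11528 and 12784. ZT6 replicate 1 also had the lowest mitochondrial share, 3.94%. The authors had scaled the arms in separate sets, and whether they were prepared together is not given in the sources used here. Injection and any batch of preparation therefore cannot be told apart.

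**Figure D1:**
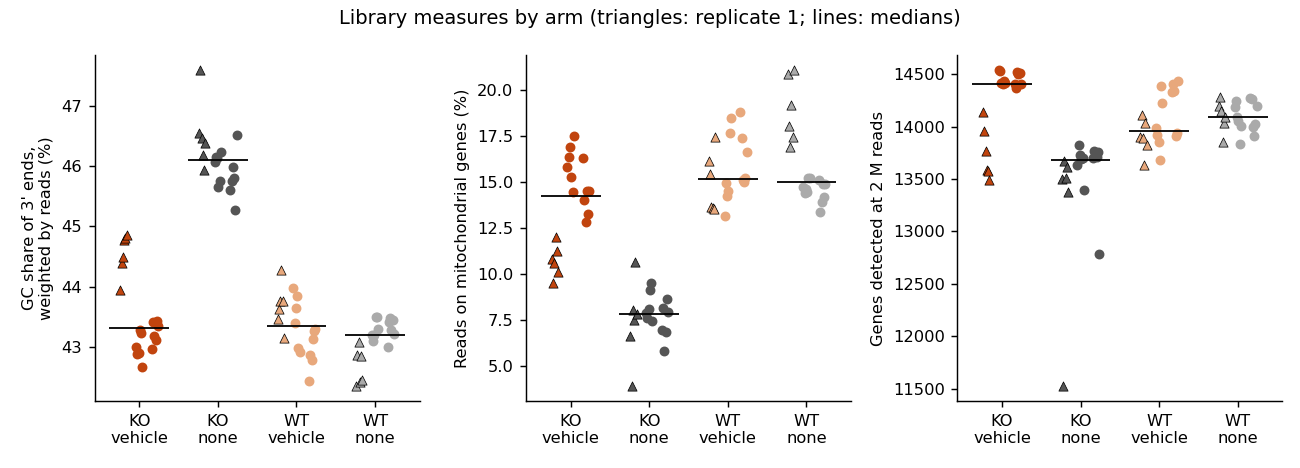
Each point is 1 library of the 4 night-fed arms (18 per arm), showing the GC share of 3' ends weighted by reads (%), the share of reads on mitochondrial genes (%) and the number of genes detected after thinning to 2 M reads. Lines are medians and triangles are replicate 1. The uninjected knockout libraries have the highest GC shares, 45.3 to 47.6%, and the lowest mitochondrial median, 7.86%.

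Averaged over the day, 6913 of 12428 genes (55.6%) were called, 3505 (28.2%) higher and 3408 (27.4%) lower with vehicle. Of these, 2052 were higher and 1763 lower by at least 1.5-fold. The libraries of the arms did not overlap for 285 genes (2.29%), 106 higher and 179 lower with vehicle. With the authors' scaling kept as deposited, 6033 genes were called higher and 1933 lower, and the median difference of all genes was 0.31, against 0.047 after rescaling. The 2 alternatives that left out vehicle replicate 1 alone and replicate 2 of both arms gave 7827 and 4343 calls.

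The size and sign of the difference followed base composition. In the tenth of genes with the lowest GC share over the last 500 transcript bases the median difference was 0.43, and in the tenth with the highest it was -0.63. Across 12336 genes, which are not independent replicates, Spearman's rho between GC share and the difference was -0.57 in the knockout, -0.60 without vehicle replicate 1 and 0.19 in WT. After a GC correction of each library, 2433 genes (19.7%) were called higher and 3238 (26.2%) lower. A call is described below as held where it kept its direction and stayed under the threshold after GC correction, with the replicate series as a random effect, with both together, without vehicle replicate 1 and without the shallow libraries. There were 2555 such genes, 1081 higher (8.7%) and 1474 lower (11.9%), and most genes named below are among them. Counts called in gene lists are to be read beside the shares of all genes, 28.2% higher and 27.4% lower, which several lists lie near.

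**Figure D2:**
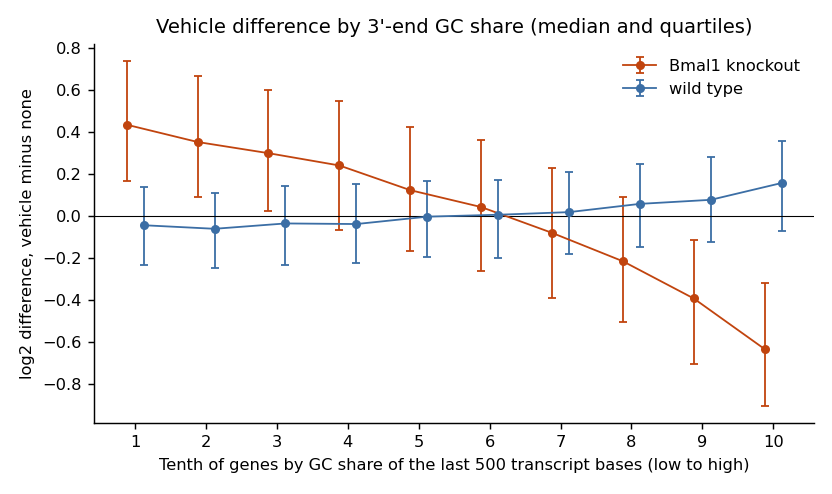
Log2 difference, vehicle minus none, for genes in 10 bins by the GC share of the last 500 transcript bases, as medians with quartiles, in the Bmal1 knockout and in WT. Knockout medians run from 0.43 in the lowest bin to -0.63 in the highest, and WT medians from -0.044 to 0.16.

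The targeted gene was checked first. Arntl reads lay at 7.62, 15.2 and 19.3 RPM with vehicle and at 6.31, 10.1 and 17.7 RPM without, a difference of 0.38 ± 0.14 (limma, adjusted p = 0.0215) that became -0.036 after GC correction. Reads come from the transcript's 3' end, which a deletion elsewhere in the gene can leave in place, so these levels do not check the knockout. Of 21 core clock genes 6 were called higher and 8 lower, with a median difference of -0.24, and after GC correction 1 was higher and 9 were lower. With the deposited scaling the median was 0.042, against 0.31 for all genes.

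The clock calls that held were all falls. Npas2, a partner of BMAL1, had 4.35, 5.62 and 11 RPM with vehicle and 5.76, 9.82 and 13.9 RPM without, a difference of -0.66 ± 0.10 (limma, adjusted p = 1.96e-06). Tef and Hlf, which encode PAR bZIP factors that clock output acts through, differed by -0.48 ± 0.11 and -0.38 ± 0.089, and Nfil3, their bZIP antagonist, by -0.55 ± 0.13. Per2, a repressor of the loop, had medians of 20.9 RPM with vehicle and 20.8 RPM without and was not called (limma, adjusted p = 0.227). Clock, Rora and Nr1d2 were called higher, by 0.49, 0.51 and 0.79, but all 3 have low GC shares (36%, 32% and 34.4%) and lost the call after GC correction.

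Some of the largest differences separated the arms in every library. Taf1d (GRCm38 chr9:15305953-15316997), a subunit of the RNA polymerase I selectivity factor, lay at 21.9, 27.7 and 46.3 RPM with vehicle and 4.61, 6.18 and 9.91 RPM without. The difference was 2.08 ± 0.10 (limma, adjusted p = 6.54e-16), and 1.82 after GC correction. F8 (GRCm38 chrX:75170344-75382738), coagulation factor VIII, had 16.2, 33.3 and 44.2 RPM with vehicle and 4.15, 7.35 and 10.5 RPM without, a difference of 1.96 ± 0.16. For both genes the lowest vehicle library exceeded the highest uninjected one.

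On the lower side, Ttc36 (GRCm38 chr9:44799400-44802951), a tetratricopeptide repeat protein gene of liver and kidney, had 32.7, 59.7 and 107 RPM with vehicle and 262, 378 and 1383 RPM without. The difference was -2.72 ± 0.15 (limma, adjusted p = 1.59e-14), and -1.59 after GC correction, its 3' end having a GC share of 67%. Ap2s1 (GRCm38 chr7:16738444-16749290), the small subunit of the clathrin adaptor AP2, had 7.25, 10.6 and 30 RPM with vehicle and 38, 67.4 and 125 RPM without, a difference of -2.46 ± 0.16. Every vehicle library was below every uninjected library for both. The same separation held for Pigt, a subunit of the GPI transamidase (-2.41 ± 0.16), Bst2, the membrane protein tetherin (-2.04 ± 0.17), and Stard10, a phospholipid transfer protein (-1.79 ± 0.14). All 5 falls held.

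Serum amyloid A genes, whose products are acute-phase proteins made by hepatocytes in answer to cytokines, were higher with vehicle. Saa2 (GRCm38 chr7:46751833-46754313) lay at 11.6, 59.1 and 215 RPM with vehicle and 1.41, 6.54 and 540.1 RPM without, a difference of 2.59 ± 0.41 (limma, adjusted p = 4.63e-06). In 16 of the 18 uninjected libraries it was below the lowest vehicle level of 11.6 RPM, and the other 2 uninjected libraries, ZT6 replicate 2 and ZT22 replicate 2, had 62.1 and 540.1 RPM. Within the vehicle arm, replicate 1 had 11.6 to 18.1 RPM from ZT6 to ZT18 and 68.1 and 214.6 RPM at ZT2 and ZT22, while replicates 2 and 3 had 40.7 to 112.0 RPM.

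Saa1, its near-identical neighbour, whose reads may be split with it, had 29.6, 91.8 and 739 RPM with vehicle and 3.37, 11.2 and 592 RPM without, a difference of 2.55 ± 0.42. Saa3, expressed in macrophages as well, differed by 1.15 ± 0.23, and the constitutive Saa4 by 1.09 ± 0.22. Fgb, the beta chain of fibrinogen, had 4526, 7855 and 18603 RPM with vehicle and 3179, 4676 and 6132 RPM without, a difference of 0.80 ± 0.13. Of 20 acute-phase genes 11 were called higher and 2 lower, with a median difference of 0.44 (0.33 after GC correction, with 9 higher and none lower). The 6 that held, all higher, were Saa1, Saa2, Saa3, Saa4, Fgb and Orm3, an orosomucoid gene. The 2 lower genes were Hp, haptoglobin (-0.74 ± 0.20), and Hamp, the iron hormone hepcidin (-0.70 ± 0.20), and neither held.

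Markers of neutrophils and monocytes were higher with vehicle too, but most of their summed level was Lyz2, which macrophages express as well. All 4 tested of 12 neutrophil and monocyte markers were called higher, and their summed level, with 5 markers measured, was 26.3 to 149.7 RPM (median 48.7) with vehicle and 12.3 to 61.6 RPM (median 21.8) without. Lyz2, lysozyme of macrophages and neutrophils, had 22.2, 44.1 and 120.0 RPM with vehicle and 10.4, 20.1 and 58.4 RPM without, a difference of 1.22 ± 0.18 (limma, adjusted p = 1.01e-06). S100a9, a calcium-binding protein of neutrophils, lay at 0.526, 1.63 and 13 RPM with vehicle and 0, 0.339 and 1.5 RPM without, a difference of 1.33 ± 0.25. Only these 2 of the 4 held, and S100a9 was near 0 without vehicle. The median of the 4 markers was 1.06 with all libraries and 0.82 without vehicle replicate 1. Of 12 Kupffer cell markers 4 were called higher and 1 lower, with a median of 0.27. After GC correction 5 were higher and none lower, with a median of 0.38, and 2 rises held. Without vehicle replicate 1 the count was 2 higher and 3 lower, with a median of 0.018. Clec4f, a defining Kupffer cell lectin, had medians of 21.5 RPM with vehicle and 24.3 RPM without and was not called. The part of these cells in the acute-phase difference was not tested.

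**Figure D3:**
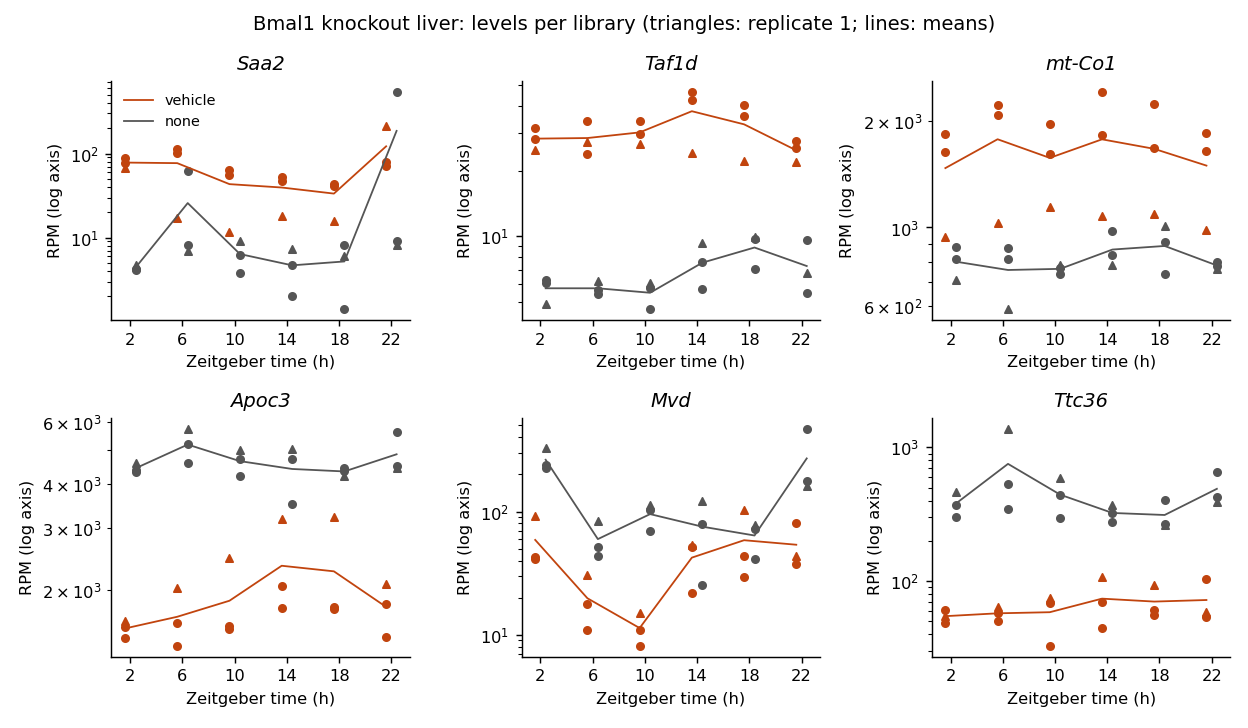
Levels (RPM, log axis) of 6 genes against Zeitgeber time in knockout livers, with vehicle and uninjected; points are libraries (triangles are replicate 1) and lines join the means of 3. Taf1d, Apoc3 and Ttc36 do not overlap between arms, and Saa2 overlaps through 2 uninjected libraries at 62.1 and 540.1 RPM.

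Genes of cholesterol synthesis and uptake, which the transcription factor SREBP2 activates when sterols are scarce, were lower with vehicle. Of 25 genes none was called higher and 15 were called lower, with a median difference of -0.41, and after GC correction 19 were lower with a median of -0.50. The falls that held included Mvd, Fdps, Tm7sf2 and Dhcr7, all enzymes of the pathway. Mvd, mevalonate diphosphate decarboxylase, had 8.1, 39.3 and 102 RPM with vehicle and 25.2, 93.5 and 472 RPM without, a difference of -1.68 ± 0.21 (limma, adjusted p = 7.26e-08). Its mean was below that of uninjected livers at all 6 times. Fdps, farnesyl diphosphate synthase, had 67.5, 128 and 326 RPM with vehicle and 57.8, 323 and 785 RPM without, a difference of -1.33 ± 0.20. Tm7sf2, a sterol reductase, lay at 25.9, 35.4 and 49 RPM with vehicle and 43.4, 79.2 and 108 RPM without, a difference of -1.13 ± 0.099, and the arms overlapped over a narrow range.

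Other members were not called. Hmgcs1, an early enzyme, had medians of 518 RPM with vehicle and 605 RPM without, a difference of -0.13 ± 0.21 (limma, adjusted p = 0.632), and Sqle, squalene epoxidase, differed by -0.24 ± 0.19 (adjusted p = 0.293). Insig1, which retains SREBP in the endoplasmic reticulum, differed by 0.041 ± 0.12 and was not called. Insig1 has a low GC share (34.4%) while Mvd has a high one (58.4%), and after GC correction Insig1 differed by -0.36.

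The promoters of the 25 list genes, called or not, were sought in RefSeq (GRCm38.p6) over 250 bases before to 50 after the start. They were searched for CCAAT on either strand, the core of the site bound by NF-Y, which is known to act beside SREBP. Of the 25 genes 17 had an entry, and 16 of these held CCAAT or its complement ATTGG in at least 1 start, or 16 of their 20 starts. The share over all 32851 promoters in the table was 37.4%, and 37.6% over the 11604 of tested genes. The promoters of Mvd (chr8:122443373-122443672, minus strand), Tm7sf2 (chr19:6067801-6068100, minus strand) and 1 start of Dhcr7 (chr7:143829964-143830263, plus strand) are shown as examples among the falls that held, 5' to 3', with each match in capitals. Only starts with a match are shown. A match is a description of these letters and not a binding site. Members that fell were not compared with those that did not, so the share says nothing about the falls.
Mvd: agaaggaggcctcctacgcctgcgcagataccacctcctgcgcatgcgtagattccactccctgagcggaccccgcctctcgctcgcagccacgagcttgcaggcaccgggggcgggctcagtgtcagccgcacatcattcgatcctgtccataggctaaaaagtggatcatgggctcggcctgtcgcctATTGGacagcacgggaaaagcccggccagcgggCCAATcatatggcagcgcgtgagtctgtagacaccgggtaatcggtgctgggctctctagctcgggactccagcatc
Tm7sf2: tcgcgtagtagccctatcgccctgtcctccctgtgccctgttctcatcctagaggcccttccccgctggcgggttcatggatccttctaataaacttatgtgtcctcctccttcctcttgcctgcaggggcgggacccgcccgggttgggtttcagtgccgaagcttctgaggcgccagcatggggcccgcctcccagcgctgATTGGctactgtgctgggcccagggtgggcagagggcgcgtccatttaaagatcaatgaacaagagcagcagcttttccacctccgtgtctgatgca
Dhcr7: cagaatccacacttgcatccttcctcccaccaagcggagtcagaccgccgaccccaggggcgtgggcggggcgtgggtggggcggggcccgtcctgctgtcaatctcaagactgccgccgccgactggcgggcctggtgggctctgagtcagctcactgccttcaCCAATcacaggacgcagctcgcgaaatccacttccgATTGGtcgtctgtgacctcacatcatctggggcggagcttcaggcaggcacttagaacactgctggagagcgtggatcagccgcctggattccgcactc
Mvd and this start of Dhcr7 have 2 matches each and Tm7sf2 has 1.

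Fatty acid synthesis genes shifted the same way. Of 18 tested 1 was called higher and 8 lower, with a median of -0.24 (0.05 with the deposited scaling, against 0.31 for all genes). Fasn, fatty acid synthase, had 91.6, 299 and 719 RPM with vehicle and 164, 548 and 2403 RPM without, a difference of -0.94 ± 0.17 (limma, adjusted p = 2.72e-05). Scd1, the desaturase that makes oleate, had 1083, 1702 and 2776 RPM with vehicle and 1017, 2891 and 9349.6 RPM without, a difference of -0.88 ± 0.17. The arms overlapped for both genes. Fads2, a desaturase of polyunsaturated fatty acids, and Gpam, which begins triglyceride assembly, differed by -0.81 ± 0.12 and -0.48 ± 0.092, and these 4 falls held. Srebf1, which encodes the SREBP1 factors that drive the pathway, had medians of 34.9 RPM with vehicle and 37.1 RPM without and was not called (limma, adjusted p = 0.588). Among 19 genes of glucose use 2 were called higher and 8 lower, and Pklr, liver pyruvate kinase, was a fall that held (-0.69 ± 0.12).

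Apolipoproteins had the lowest median of the lists with at least 7 tested genes, -0.73, with 2 of 17 called higher and 12 lower. Their 3' ends are rich in GC (median 53.2%, against 44.0% over all genes), and after GC correction 3 were higher and 9 lower with a median of -0.34. Apoc3, an inhibitor of triglyceride clearance, had 1386, 1772 and 3219.8 RPM with vehicle and 3503, 4542 and 5744 RPM without, a difference of -1.31 ± 0.10 (limma, adjusted p = 1.14e-11). Apoa2, a protein of HDL, had 5022, 6244 and 8433 RPM with vehicle and 13073, 16170.0 and 31836 RPM without, a difference of -1.38 ± 0.11. No vehicle library reached the lowest uninjected library for either gene. Apoa1, the main HDL protein, differed by -1.13 ± 0.11 and Apoe, a ligand of remnant receptors, by -0.81 ± 0.15, and Apoc4, Apom and the HDL enzyme gene Lcat also fell and held. After GC correction these 5 differences were between -0.48 (Apoe) and -0.34 (Apom).

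Lipc, which encodes hepatic lipase and is of the same list, had 111, 184 and 257 RPM with vehicle and 101.4, 129 and 165 RPM without, a difference of 0.48 ± 0.095 (limma, adjusted p = 8.28e-05) that held. Apob, the structural protein of VLDL, was not called with all libraries (0.51 ± 0.36, limma, adjusted p = 0.24) and differed by 1.45 without vehicle replicate 1.

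Of 12 hepatocyte markers none was called higher and 4 were called lower, and after GC correction 1 was higher and 8 were lower. The 4 falls, which held, were the secreted proteins Apoa1 and Serpina1a, an antitrypsin, and the asialoglycoprotein receptor subunits Asgr1 and Asgr2. Alb, albumin, had 6544, 17217 and 38501 RPM with vehicle and 9123, 14230.0 and 21037 RPM without and was not called (limma, adjusted p = 0.0787). The hepatocyte markers were thus abundant in both arms, with sums of 46545 to 81457 RPM (median 58518) with vehicle and 55619 to 77018 RPM (median 67389) without.

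Heat shock genes divided into 2 sets. Of 20 tested 11 were called higher and 4 lower, with a median of 0.40 (0.26 after GC correction, with 9 higher and 4 lower), and 8 rises and 4 falls held. Hspa4l, a nucleotide exchange factor of the Hsp110 family, had 14.6, 27.1 and 57.4 RPM with vehicle and 5.54, 10.1 and 17.9 RPM without, a difference of 1.5 ± 0.13 (limma, adjusted p = 7.12e-11). Its relative Hspa4 had 143, 161 and 206 RPM with vehicle and 31.5, 93.6 and 125 RPM without, a difference of 0.82 ± 0.095 with no overlap between arms. Hspd1 and Hspe1, which encode the mitochondrial chaperonin and its lid, differed by 0.83 ± 0.15 and 0.69 ± 0.12. Dnaja1, Hsph1, Hsp90aa1 and Hspa8, cytosolic chaperones, were the other rises that held.

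The falls were Hsp90ab1, the constitutive cytosolic Hsp90, with 676, 1023 and 1620.3 RPM in vehicle livers and 976, 1636 and 2563 RPM in uninjected livers (-0.68 ± 0.08), and 3 co-chaperones of Hsp90. These were Fkbp4 (-0.63 ± 0.082), Cdc37, which loads kinases onto Hsp90 (-0.64 ± 0.091), and Stip1, which joins it to Hsp70 (-0.92 ± 0.13). The 4 falling genes had 3'-end GC shares of 49.4% (Cdc37) to 54.2% (Stip1) and the 8 rising genes of 31.8% (Hspa4l) to 46.6% (Hspa8), so base composition moved with the direction. Of 28 chaperone and stress genes of the endoplasmic reticulum 8 were called higher and 5 lower, against 28.2% and 27.4% of all genes. After GC correction 6 were higher and 10 lower. Hsp90b1 (1.03 ± 0.19), Hspa5 (0.85 ± 0.12) and Dnajc3 (0.74 ± 0.091) rose and Calr, calreticulin (-0.55 ± 0.079), fell, and these 4 held.

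Protein-coding transcripts of the mitochondrial genome were higher with vehicle. Of 9 mitochondrially encoded protein genes tested 8 were called higher and none lower, with a median of 0.84. After GC correction 6 were higher and 1 lower, with a median of 0.45. mt-Co1, a subunit of cytochrome c oxidase, had 942, 1662 and 2415 RPM with vehicle and 587, 793 and 1009.6 RPM without, a difference of 0.95 ± 0.13 (limma, adjusted p = 2.81e-07). The vehicle replicate 1 libraries lay between the arms, and without them the difference was 1.24. mt-Nd6, the complex I subunit encoded on the other strand, had 5.37, 21.8 and 37.5 RPM with vehicle and 1.75, 4.35 and 15.9 RPM without, a difference of 2.02 ± 0.24. mt-Nd3, mt-Nd4l and mt-Nd5, further complex I subunits, also rose and held. Nuclear genes of oxidative phosphorylation did not share this shift, with 15 of 42 called higher and 17 lower and a median of -0.097.

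**Figure D4:**
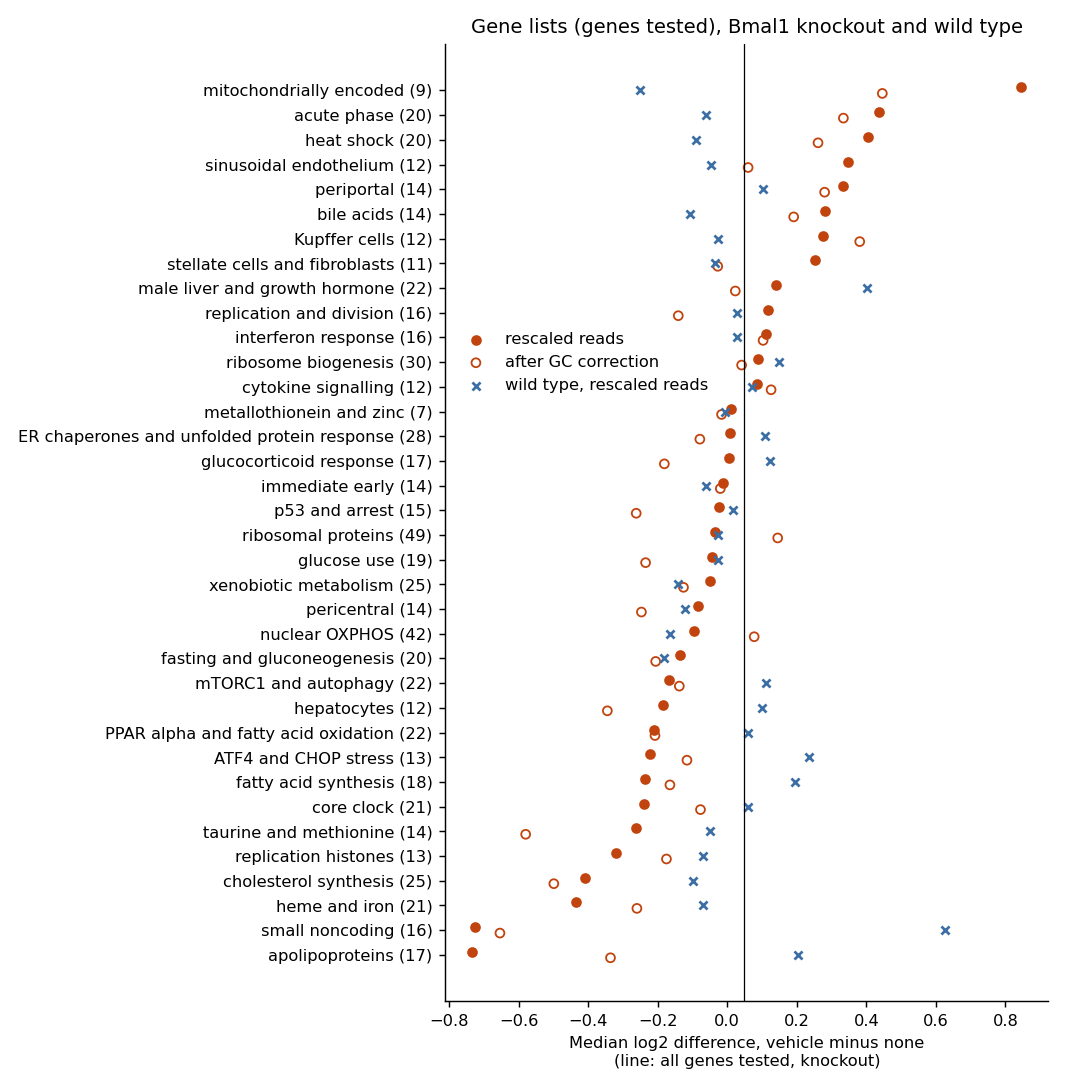
Median log2 difference, vehicle minus none, for each gene list with at least 7 tested genes (number tested in brackets), in the knockout with rescaled reads (filled), in the knockout after GC correction (open) and in WT (crosses). Mitochondrially encoded protein genes have the highest knockout median, 0.84, and apolipoproteins the lowest, -0.73.

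Taurine and methionine genes were lower more often than higher, with 1 of 14 called higher and 7 lower (median -0.26). The median was -0.58 after GC correction and 0.012 with the deposited scaling, against 0.31 for all genes. Csad, which makes hypotaurine, had 42.8, 122 and 612 RPM with vehicle and 115, 472 and 1405 RPM without, a difference of -1.87 ± 0.30 (limma, adjusted p = 5.88e-06). Cbs, which begins transsulfuration, had 303, 487 and 938 RPM with vehicle and 576, 1013 and 1176 RPM without, a difference of -0.81 ± 0.11. The arms overlapped for both. Gamt, Gnmt, Ahcy and Cdo1 also fell and held, and Bhmt, which remethylates homocysteine, rose by 0.76 and held. Among 14 periportal hepatocyte genes 6 were called higher and 2 lower, with a median of 0.33. After GC correction 7 were higher and 4 lower, with the series as well 2 and 2, and 1 rise held. The 2 falls called before correction, both of which held, were the urea cycle enzymes Ass1 (-1.36 ± 0.13) and Asl (-1.02 ± 0.11). Of the other urea cycle enzymes in that list, Arg1 was called higher (0.61 ± 0.14) and Cps1 was not called (0.13 ± 0.12) but was called lower after GC correction (-0.30). Both were named after their values were seen.

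Heme and iron genes included 2 called higher and 13 lower of 21, with a median of -0.43 (-0.26 after GC correction). Urod, an enzyme of heme synthesis, had 59.1, 72.9 and 163 RPM with vehicle and 132, 151 and 369 RPM without, a difference of -0.96 ± 0.13 (limma, adjusted p = 3.17e-07). Alad, which acts earlier in the same pathway, had 67.4, 76.8 and 118 RPM with vehicle and 114, 144 and 183 RPM without, a difference of -0.78 ± 0.079. The arms overlapped in range for both, narrowly for Alad, and both calls held, as did the falls of Blvrb, Trf, which encodes transferrin, and Fth1, ferritin heavy chain.

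Of 14 bile acid genes 6 were called higher and 3 lower, against 28.2% and 27.4% of all genes, and after GC correction 5 and 2. Slco1a1, an organic anion uptake carrier, had 60.8, 159 and 271 RPM with vehicle and 20, 62 and 119 RPM without, a difference of 1.41 ± 0.18 (limma, adjusted p = 1.39e-07). Slc10a1, the sodium-dependent bile acid carrier, had 189.7, 341 and 422 RPM with vehicle and 132, 194 and 272 RPM without, a difference of 0.73 ± 0.089. Slco1b2 (1.05 ± 0.14) and the export pump gene Abcb11 (0.41 ± 0.081) also rose, and all 4 held. Cyp8b1, which directs synthesis to cholic acid, had 244, 539 and 1162 RPM with vehicle and 646, 1336 and 2488 RPM without, a difference of -1.23 ± 0.19 that held. Cyp7a1, the rate-limiting enzyme, had medians of 122 RPM with vehicle and 151 RPM without and was not called (limma, adjusted p = 0.201). Among the other carriers of the list, Slco1a4 was called higher (0.43 ± 0.11) but lost the call after GC correction, and Abcb4, the phospholipid exporter, was not called (-0.12 ± 0.081) but was called higher after GC correction (0.24). These 2 carriers were named after their values were seen.

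Cyp3a11, a main steroid- and drug-oxidising cytochrome P450, had 347, 1940.2 and 4013 RPM with vehicle and 243, 479 and 1129.5 RPM without, a difference of 1.67 ± 0.25 (limma, adjusted p = 1.23e-06). This rise held, while of 25 xenobiotic genes 4 were called higher and 9 lower. Among 22 genes of the male, growth hormone-driven liver programme 8 were called higher and 4 lower. The counts of both lists are to be read beside 28.2% higher and 27.4% lower over all genes. The 5 of the male programme that held were all higher, namely Mup11, Mup20, Mup21, Hsd3b5 and C8a. Mup20 had 3157, 5238 and 9309.7 RPM with vehicle and 628, 1936 and 4675 RPM without, a difference of 1.5 ± 0.18, but Mup genes are near-identical copies between which reads can be split. C8a, a complement component gene outside that family, had 208, 369 and 966 RPM with vehicle and 92.2, 187 and 318 RPM without, a difference of 1.18 ± 0.16.

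Among 22 genes of mTORC1, the growth-regulating kinase complex, and autophagy 3 were called higher and 10 lower. The median was -0.17 (0.12 with the deposited scaling, against 0.31 for all genes). Akt1s1, which encodes the mTORC1 inhibitor PRAS40, had 0.35, 1.47 and 2.49 RPM with vehicle and 4.2, 6 and 15.9 RPM without, a difference of -1.94 ± 0.16 (limma, adjusted p = 3.18e-11). Tfe3, a transcription factor that mTORC1 keeps out of the nucleus, had 4.99, 8.27 and 12.1 RPM with vehicle and 13.3, 18.6 and 27.3 RPM without, a difference of -1.20 ± 0.10. The arms did not overlap for either gene. Sqstm1, the autophagy receptor p62, and Tsc2, an inhibitor of mTORC1, differed by -0.76 ± 0.11 and -0.67 ± 0.10, and all 4 falls held. Of 13 genes of the ATF4 and CHOP stress response 2 were called higher and 6 lower, and Atf5, a factor of that response, had 137, 282 and 624 RPM with vehicle and 489.6, 779.9 and 1179.8 RPM without, a difference of -1.43 ± 0.14 that held.

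Other cell types gave medians that moved with base composition. Sinusoidal endothelial markers were called higher for 7 of 12 and lower for 2, with a median of 0.35 that became 0.06 after GC correction. Their corrected counts were 5 higher and 1 lower, against 19.7% and 26.2% of all genes, and 2 rises and 1 fall held. Stellate cell and fibroblast markers were called higher for 5 of 11 and lower for 1, and after GC correction for 2 and 3. Their median went from 0.25 to -0.027. Glucocorticoid response genes (4 higher and 4 lower of 17), immediate early genes (3 and 2 of 14) and interferon genes (2 and 4 of 16) had calls in both directions. Mt2, a metallothionein induced by zinc and glucocorticoids, had 11.3, 62.9 and 1070.5 RPM with vehicle and 4.08, 18.6 and 311 RPM without, a difference of 1.63 ± 0.46 (limma, adjusted p = 0.00312) that was lost with the replicate series as a random effect. Its neighbour Mt1 differed by -0.077 ± 0.32 and was not called.

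The number of genes called varied with the time of day. It was 2141 (17.2%) at ZT2, 2959 (23.8%) at ZT6, 1622 (13.1%) at ZT10, 600 (4.83%) at ZT14, 512 (4.12%) at ZT18 and 1947 (15.7%) at ZT22, from 3 libraries per arm. At ZT6 the count was 1461 without the shallow library. Summed over the 6 times, 9781 calls became 18089 without vehicle replicate 1, and 21396, 699 or 2394 without replicate 1, 2 or 3 of both arms. These counts do not show that the difference changed over the day. The test of that change called 0 genes with limma, 361 at an unadjusted p under 0.05, 0 with edgeR, 1 with DESeq2 and 108 with limma's array weights. Of all 12428 genes 5998 (48.3%) had the same sign at all 6 times. So did 5549 of the 6913 called for the daily mean, a call that favours this because it averages the same 6 times.

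A 24 h rhythm was called in 688 genes (5.54%) with vehicle and 701 (5.64%) without. Both arms called 283 genes, which is 41.1% of the vehicle list and 40.4% of the uninjected list. All 283 peaked within 4 h of the same time in both arms, with a median difference of 0.23 h. Their median amplitude (log2, mean to peak) was 0.65 with vehicle and 0.72 without, and 104 of them had the higher amplitude with vehicle. The direct test of a rhythm difference called 0 genes with limma, 581 at an unadjusted p under 0.05, 0 with edgeR, 1 with DESeq2 and 88 with limma's array weights. The counts per arm depended on how the replicate series was treated, with 2229 genes with vehicle and 741 without when it was a random effect, and 2528 and 733 with a replicate block. They also rest on few libraries. Without replicate 1, 2 or 3 the vehicle count was 1545, 14 or 15 and the uninjected count was 546, 64 or 170.

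The shared rhythms included genes known to answer feeding and heat. Depp1, a gene induced by FOXO factors in fasting, had an amplitude of 2.80 ± 0.25 (SE of a cosine coefficient) peaking at ZT 5.11 with vehicle, and 2.72 ± 0.24 peaking at ZT 4.63 without. Noct, a deadenylase-family gene that cycles in liver, had 1.61 ± 0.17 at ZT 16.5 with vehicle and 2.08 ± 0.17 at ZT 16.3 without. The arms were close for Depp1, and Noct had the lower amplitude with vehicle, but the rhythm difference had unadjusted p = 0.633 for Depp1 and 0.148 for Noct in limma. Hsp90aa1, which heat shock factor induces, had 1.06 ± 0.08 at ZT 19.2 with vehicle and 1.06 ± 0.10 at ZT 19.1 without. Fasn peaked at ZT 21.2 with an amplitude of 1.17 ± 0.13 with vehicle and at ZT 22.1 with 1.23 ± 0.18 without. Per2 kept a rhythm in both arms, of 0.77 ± 0.12 at ZT 17.3 with vehicle and 1.01 ± 0.14 at ZT 16.9 without. Of 20 heat shock genes 11 were rhythmic with vehicle, 13 without and 10 in both, and of 25 cholesterol synthesis genes 6, 14 and 6. Over all 12428 genes the counts were 688 (5.54%), 701 (5.64%) and 283. The rhythm difference had an unadjusted p under 0.05 in limma for 1 of the 25 cholesterol synthesis genes and 0 of the 20 heat shock genes. None was called.

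**Figure D5:**
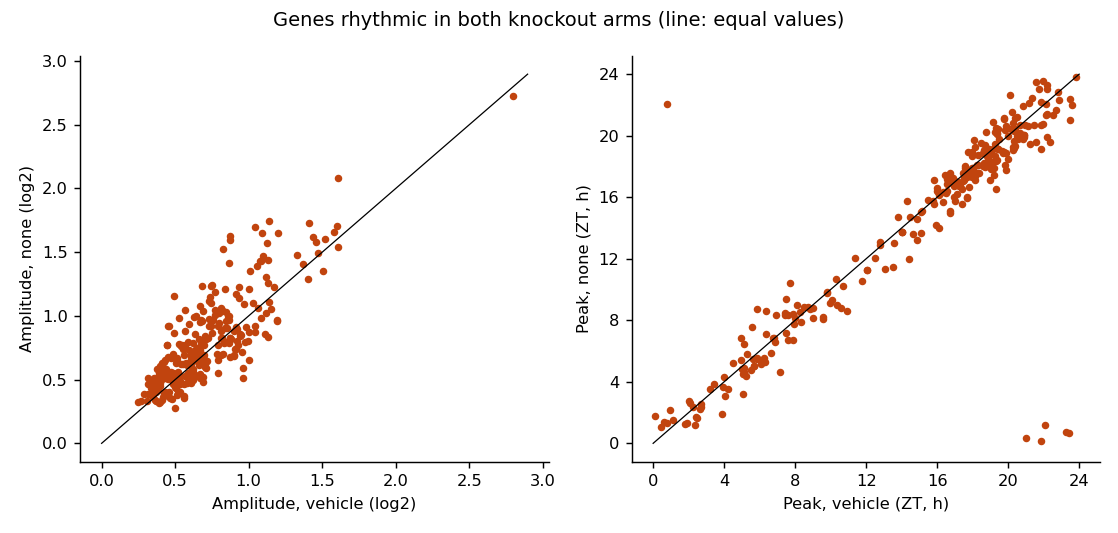
Amplitude (log2) and peak time (ZT in h) of the 283 genes rhythmic in both knockout arms, vehicle on the horizontal and uninjected on the vertical axis; the line marks equal values. All 283 peaks lie within 4 h of each other on the 24 h circle, points in the corners being times close to ZT 0, and Depp1 has the largest amplitudes, 2.80 with vehicle and 2.72 without.

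In WT livers vehicle and uninjected mice differed in 4231 genes (34%), 2191 (17.6%) higher and 2040 (16.4%) lower. The vehicle difference itself depended on genotype in 7115 genes (57.2%), being more positive in the knockout for 3706 (29.8%) and more negative for 3409 (27.4%). Of 2559 genes called in both genotypes, 37.0% of the knockout calls and 60.5% of the WT calls, 635 moved in the same direction and 1924 in opposite directions. The genotypes share no libraries, and the make-up of the WT libraries differed between arms in other ways than in the knockout. In WT the GC share and mitochondrial share had adjusted permutation p = 0.101 and 0.624. The slope of a library's log2 levels, relative to each gene's mean over libraries, on GC share (per 10 percentage points) was -0.089 ± 0.095 with vehicle and -0.16 ± 0.080 without in WT (SD, n = 18 each; permutation, adjusted p = 0.0384), and -0.081 ± 0.18 with vehicle and 0.33 ± 0.082 without in the knockout (adjusted p = 5.14e-05), so the difference had opposite signs. Depth averaged 9.78 ± 1.80 M reads with vehicle and 5.86 ± 0.87 M without in WT (SD, n = 18 each; permutation, adjusted p = 5.14e-05), and small noncoding RNAs took 0.0899 ± 0.0453% and 0.0461 ± 0.0206% of reads (adjusted p = 0.00048). The part of these measures in the genotype difference was not tested beyond the GC correction, which left 4511 of the 7115 genes called with the same sign. Without replicate 2 of all arms 4643 genes depended on genotype, and without replicate 1 or 2 there were 1885 or 1825 WT calls.

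Several of the genes and gene groups above moved otherwise in WT. Saa2 had 7.09, 18.6 and 606 RPM with vehicle and 102, 147 and 291 RPM without in WT, a difference of -2.19, and the genotype difference was 4.78 ± 0.63 (limma, adjusted p = 5.74e-09). Ttc36 had 48.5, 93.8 and 197 RPM with vehicle and 23.5, 37.7 and 74.7 RPM without in WT, a difference of 1.13, and a genotype difference of -3.85 ± 0.26. Mvd rose by 0.56 in WT, and its genotype difference was -2.23 ± 0.30. For these 3 genes vehicle livers lay on opposite sides of uninjected livers in the 2 genotypes. The cholesterol synthesis list did not reverse as its member Mvd did, with 1 of 25 genes higher and 7 lower in WT (median -0.099). Taf1d and F8 differed by -0.11 and 0.13 in WT and were not called there, with genotype differences of 2.20 ± 0.13 and 1.83 ± 0.21. Of the mitochondrially encoded genes 4 were lower and none higher in WT (median -0.25), and of the ATF4 and CHOP genes 6 were higher and none lower (median 0.23).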

How the data were processed

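The deposited table holds a signal for 15907 gene symbols in 234 libraries, made by the authors with STAR 2.7.3a and SAMtools on mm10 (GRCm38.p6) according to the submitters' processing notes. How reads were counted is not given in the sources used here. In each library 100% of values were whole multiples of 1 step within 0.01 read, so reads were recovered by dividing by that step, and each arm's libraries, scaled by the authors in separate sets, were rescaled together. Depth was 2.18 to 12.6 M reads in knockout and 4.85 to 14.3 M in WT libraries (M is 1000000).

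The 12428 genes averaging 1 RPM or more were tested with limma 3.58.1 (R 4.3.3) and a mean-variance trend on log2 of TMM-scaled RPM plus 0.5, which understates changes of low genes. Each arm and time had its own mean. Replicates are biological per the labels. Alternatives used edgeR 4.0.16 and DESeq2 1.42.0, among others. Gene lists and the rule for named genes (members of fixed lists with the smallest adjusted p, the 12 highest and 12 lowest differences with the same sign at all 6 times, and the 8 highest and 8 lowest genotype differences) were chosen with earlier results of these data known. Replicate series, GC correction and leaving out vehicle replicate 1 were added after seeing the data. Library measures were compared by permutation (scipy 1.17.1). Of 44 lists the text gives those with a direction or a marker role. On simulated data with 100 genes changed 1.5-fold and 100 changed 2-fold, the daily mean test recovered 78 and 96, with 8 false calls. The simulated libraries had no replicate series and no GC difference between arms, so these rates do not carry over to the real calls. Some genes are not reported here.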

Additional observations from a re-analysis of the deposited data

Results flagged for a closer look

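The difference between vehicle and uninjected livers differed between knockout and WT in 7115 genes by limma's interaction test. The 16 genes that follow are those with the highest and lowest such differences, each given as the knockout's log2 difference minus that of WT ± SE.

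The acute-phase genes Saa2 (4.78 ± 0.63) and Saa1 (3.82 ± 0.57) rose with vehicle in the knockout and fell in WT, and so did the metallothionein gene Mt2 (3.26 ± 0.59), with medians of 62.9 RPM with vehicle and 18.6 RPM without in the knockout, and 28.2 RPM with vehicle and 97 RPM without in WT. Cyp3a11, a cytochrome P450 (2.48 ± 0.35), and Sucnr1, a succinate receptor (2.46 ± 0.70), had the same pattern. Atp5md, a small ATP synthase subunit (3.08 ± 0.41), Polr2k, a subunit shared by the RNA polymerases (2.76 ± 0.43), and mt-Nd6 (2.73 ± 0.32) also rose in the knockout and fell in WT.

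In the other direction, Ttc36 (-3.85 ± 0.26), Pigt (-3.22 ± 0.23) and Stard10 (-2.94 ± 0.19) fell with vehicle in the knockout and rose in WT. The linker histone gene H1f4 (-2.90 ± 0.39) fell to a median of 4.34 RPM in vehicle knockout livers, against 10.7 RPM uninjected. Without vehicle replicate 1 its knockout difference was -0.59, against -1.25 with all libraries. The mitochondrial tRNA genes mt-Tl1 (-3.27 ± 0.27), mt-Tn (-2.83 ± 0.25), mt-Tm (-2.74 ± 0.26) and mt-Te (-2.64 ± 0.31) completed the lower end. After GC correction all 16 kept the sign of the difference between genotypes.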

How the results depend on the processing

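The injection comparison cannot be told apart from a batch. No check behind the held set removes a batch, since each compared the same arms, so held calls share this limit. A replicate series of the vehicle arm stood apart, and GC share moved with the arms. Single calls outside the held set therefore also rest on how the series and GC share were treated. Rhythm counts per arm rest on few libraries, and low genes (under about 1 RPM) were not tested.

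Against 6913 daily mean calls there were 4524 with the replicate series as a random effect, 3579 with GC correction as well, 3230 on means of the 3 series, 3815 at a fold of at least 1.5, and 4343 to 8108 leaving out replicate 2 or 1. DESeq2 size factors (7107), no filter (7867), edgeR (7046), DESeq2 (7310), GC correction (5671) and the other settings run stayed within 1.5 times. Calls summed over times numbered 9781, and 699 to 21396 without 1 replicate number, 30760 with array weights, 18089 without vehicle replicate 1, 5375 with GC correction and 6138 with the series as well. Change over the day and rhythm difference, 0 calls each, gave 108 and 88 with array weights and 1 each with DESeq2.

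Rhythm calls with vehicle (688) were 14 to 1557 without 1 replicate, 2528 with the replicate block, 2852 with array weights, 1230 with DESeq2, 2229 with the series and 2252 with GC correction too. Uninjected (701) they were 1203 without the shallow libraries, 64 to 546 without 1 replicate, 1825 with array weights and 1292 with DESeq2. The genotype difference (7115) had 4643 to 7957 calls without 1 replicate and 3741 with GC correction and series, and WT (4231) had 1825 to 4772 without 1 replicate, 2015 with the series and 2261 with GC correction too. The cause of each was not tested.

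Same-numbered libraries of the 2 arms at the same time had residual correlations of -0.11 to 0.28 (median 0.048), against a median of -0.019 for other numbers. Of 18 vehicle libraries 8 correlated best with their own number. The series of the vehicle arm also shape these residuals, so whether numbers pair the samples was not settled. The replicate block gave 7252 daily mean calls.

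Of 4110 values of 242 named genes 3768 kept direction and side of the threshold, 286 lost the call, 43 gained it and 13 reversed. With GC correction, alone and with the series, Arntl was -0.036, Bhlhe40 -0.47, Slc39a4 0.11, Hist1h2al 0.0083 and Hba-a1 0.098. With GC correction Alas2 was 0.29 and Krt8 0.37, and with the deposited scaling Mtf1 was 0.24.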

Other observations

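Mitochondrial tRNA genes moved against the other transcripts of the mitochondrial genome, a class singled out after its values were seen. Of 9 tested, 8 were called lower with vehicle in the knockout and none higher, with a median difference of -1.25, and 9 were higher in WT with a median of 1.11. mt-Tn had 2.82, 8.5 and 14.9 RPM with vehicle and 15.6, 29.7 and 78.2 RPM without, and in WT 10.4, 19.3 and 40.2 RPM with vehicle and 4.59, 8.78 and 18.3 RPM without. mt-Tl1 had 0.74, 2.12 and 4.12 RPM with vehicle and 4.67, 7.59 and 33.9 RPM without in the knockout. The 2 ribosomal RNAs were higher with vehicle in the knockout (mt-Rnr1 1.16 ± 0.36, mt-Rnr2 1.31 ± 0.37), by 2.07 and 2.23 without vehicle replicate 1.

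Most small noncoding RNAs tested were lower as well. Of 16 tested 3 were called higher and 11 lower with vehicle, with a median of -0.73 (-0.65 after GC correction), and in WT 8 were higher and 1 lower. Some of the 16 are copies of 1 RNA, such as Rnu3b4 and Rnu3b4.1. With the replicate series as a random effect 7 were lower, and 4 falls held. Their share of knockout reads was 0.0754 ± 0.0316% with vehicle and 0.105 ± 0.0688% without (SD, n = 18 each; permutation, adjusted p = 0.123). Snord89, a box C/D snoRNA, differed by -2.82 ± 0.48, Snora81, a box H/ACA snoRNA, by -1.78 ± 0.47, and Rn7s2, a signal recognition particle RNA copy, by -2.22 ± 0.24, and these 3 held.

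Ribosome biogenesis genes had calls in both directions, 9 of 30 higher and 6 lower, against 28.2% and 27.4% of all genes. Npm1, nucleophosmin, had 120.3, 151 and 206 RPM with vehicle and 27.3, 71.4 and 89.9 RPM without, a difference of 1.24 ± 0.10 (limma, adjusted p = 4.3e-11), and Nop58, Gnl3, Ltv1 and Wdr75 also rose and held. Rcl1, Nop16 and Mybbp1a fell and held. Of 49 ribosomal protein genes 15 were higher and 18 lower, and after GC correction 18 and 15.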
